A study of Mus musculus with 6 samples.

Results

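The 10 Sox genes Sox1, Sox2, Sox4, Sox5, Sox8, Sox9, Sox10, Sox11, Sox17 and Sox18 were examined for accessible chromatin in Ezh2-null mouse fibroblasts. They were taken by name, placed on mm10 by their RefSeq coordinates, and are 10 of the 21887 protein-coding genes in the table of the assembled chromosomes. Accessibility was read by ATAC-seq on 50000 whole cells per sample, a method that cuts open DNA with a transposase and tags it for sequencing. The design held 3 groups with 2 samples each, all from 1 mouse embryonic fibroblast line, A (also C2), that had been immortalised with c-myc. The groups were wild-type cells, Ezh2 -/- cells, and Ezh2 -/- cells given retroviral pMSCV-Ezh2. Ezh2 is the enzyme of Polycomb repressive complex 2, which methylates histone H3 on lysine 27. All values below are of the Ezh2 -/- cells, whose list of accessible intervals was used. Profiles of the wild-type and the pMSCV-Ezh2 cells were not analysed here, and no genotypes are compared. The sources used here do not give the strain or age of the embryos.

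Sox proteins bind DNA through an HMG box, a domain that bends the helix, and act with partner factors to set cell identity. They fall into subgroups by sequence. Sox1 and Sox2 (subgroup B1) hold neural progenitors in place, and Sox2 also maintains pluripotent cells. Sox4 and Sox11 (C) act in differentiating neurons and in mesenchyme, Sox5 (D) and Sox9 (E) in cartilage, Sox8 and Sox10 (E) in neural crest and its glia, and Sox17 and Sox18 (F) in endoderm and vessels. Many Sox genes carry Polycomb marks in cells that do not express them. For the comparison by lineage, Sox1, Sox2, Sox10 and Sox11 were counted as neural, Sox4, Sox5, Sox8 and Sox9 as mesenchymal, Sox17 as endodermal and Sox18 as endothelial. Several of these genes work in more than one lineage, so the grouping is a convention.

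The list held 21835 intervals from 19215 called regions. A called region carries a total signal (the area under its coverage) and a maximum signal (its height), both in the authors' own unit with no stated scaling, and some regions were deposited as 2 or more separate pieces that repeat the same values. The list has no value per replicate and the depth is unknown, so no replicate error or test could be given. Marker genes of cell types were counted beside the 47.4% of all protein-coding genes that had an interval within 1 kb of an end. Of 16 fibroblast markers 11 had one, among them Col1a1, Col1a2, Col3a1, Vim and Twist1, while Dcn, Fap, Lum, Pdgfra and Thy1 did not. Of the endothelial, haematopoietic and pluripotent markers, 0 of 5, 0 of 5 and 0 of 4 had one. Of the neural markers 4 of 6 did (Gfap, Map2, Nes and Rbfox3), and of the epithelial ones 2 of 5 (Cldn4 and Krt8). Gfap, Rbfox3 and the fibroblast marker Col1a1 lie on chromosome 11 beyond 90 Mb, where 77.2% of genes had a gene-end interval. The endothelial marker Pecam1 lies there too and had none.

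Of the 10 Sox genes, 6 had an interval within 1 kb of a gene end: Sox2, Sox4, Sox8, Sox9, Sox10 and Sox18. The share, 60%, stood beside 47.4% of all protein-coding genes. Its exact 95% binomial interval, 26.2 to 87.8, covers counting over genes only. The genes were picked by name and not drawn at random, so the binomial interval does not test them against all genes. An interval lay over the gene itself at 7 of 10, the same 6 genes and Sox5, against 52.8% of all genes. Sox1, Sox11 and Sox17 had no interval over the gene or anywhere within 200 kb, which was true of 17.2% of all genes. In a bulk profile, access in a few cells and weak access in all cells cannot be told apart. The members ran from nothing in 200 kb to 24 intervals at Sox18. Sox9 and Sox10 had 18 each, Sox8 15, Sox4 4, Sox5 3 and Sox2 1. The median was 3.5 over the members and 5 over all genes.

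By lineage, a gene-end interval was found at 2 of 4 neural members, 3 of 4 mesenchymal members, 0 of 1 endodermal and 1 of 1 endothelial member. Intervals within 200 kb numbered 0 to 18 around neural members (median 0.5) and 3 to 18 around mesenchymal ones (median 9.5), so the ranges overlapped. With Sox4 and Sox8 counted as neural, the gene-end counts became 4 of 6 neural and 1 of 2 mesenchymal members. With groups of 1 to 4 genes and no replicates, no difference between lineages could be tested.

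**Figure D1:**
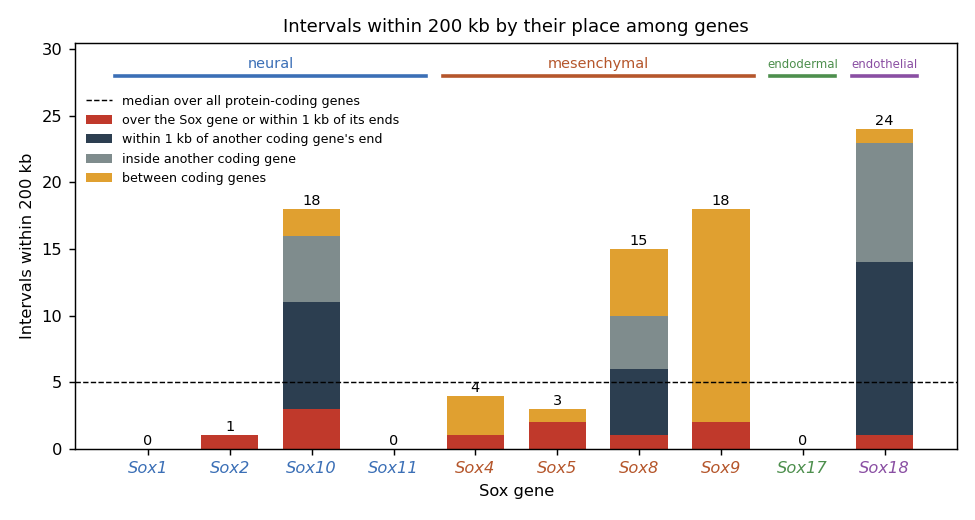
Number of intervals within 200 kb of each Sox gene (y axis), split by where the interval lies among protein-coding genes; genes are ordered by lineage and the dashed line is the median over all protein-coding genes, 5. Sox1, Sox11 and Sox17 have none, and the bar of Sox9 is made up almost wholly of intervals between genes.

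Promoter sequence was at hand for 6 of the 10 genes (all but Sox9, Sox10, Sox17 and Sox18) in the RefSeq table for GRCm38.p6, the assembly behind mm10. The 250 bases before the gene start are shown for 5 of them, because they set promoters that overlapped an interval (Sox2, Sox4 and Sox8) beside promoters that did not (Sox1 and Sox11). Each runs 5′ to 3′ on the strand of the gene, with CpG dinucleotides, the sites of vertebrate DNA methylation and the hallmark of CpG islands, in capitals. The windows are chr8:12395269-12395518 on the plus strand for Sox1, chr12:27342719-27342968 on the minus strand for Sox11, chr3:34649745-34649994 on the plus strand for Sox2, chr13:28953700-28953949 on the minus strand for Sox4 and chr17:25570687-25570936 on the minus strand for Sox8.
Sox1: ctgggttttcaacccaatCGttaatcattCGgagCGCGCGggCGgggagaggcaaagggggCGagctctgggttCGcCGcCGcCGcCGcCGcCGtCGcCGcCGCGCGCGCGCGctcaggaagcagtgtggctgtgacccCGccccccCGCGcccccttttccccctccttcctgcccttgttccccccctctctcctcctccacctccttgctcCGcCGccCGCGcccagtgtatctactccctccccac
Sox11: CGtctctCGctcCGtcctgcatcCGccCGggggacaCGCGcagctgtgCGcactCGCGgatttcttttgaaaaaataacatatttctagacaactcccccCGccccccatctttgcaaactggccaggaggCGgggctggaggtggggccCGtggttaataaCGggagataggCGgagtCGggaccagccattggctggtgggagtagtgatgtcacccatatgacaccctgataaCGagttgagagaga
Sox2: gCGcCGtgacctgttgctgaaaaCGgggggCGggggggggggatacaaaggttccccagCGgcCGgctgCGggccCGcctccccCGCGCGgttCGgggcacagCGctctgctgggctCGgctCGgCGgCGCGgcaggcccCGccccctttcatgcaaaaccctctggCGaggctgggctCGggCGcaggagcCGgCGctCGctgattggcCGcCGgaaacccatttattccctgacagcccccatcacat
Sox4: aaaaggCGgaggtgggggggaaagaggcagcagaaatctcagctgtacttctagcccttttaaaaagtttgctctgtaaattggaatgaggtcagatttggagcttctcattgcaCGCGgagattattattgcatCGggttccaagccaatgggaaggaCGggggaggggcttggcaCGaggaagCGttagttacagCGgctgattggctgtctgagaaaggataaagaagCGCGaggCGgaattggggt
Sox8: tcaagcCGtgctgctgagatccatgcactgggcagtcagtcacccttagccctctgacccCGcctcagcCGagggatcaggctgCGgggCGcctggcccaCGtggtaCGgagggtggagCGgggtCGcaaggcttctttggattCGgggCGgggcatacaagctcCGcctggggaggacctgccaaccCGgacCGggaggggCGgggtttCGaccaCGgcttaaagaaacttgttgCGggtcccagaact

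Sox1 had the most CpG dinucleotides of these promoters, 29, and no interval. Sox2 followed with 27, Sox8 with 18, Sox11 with 17 and Sox4 with 11, against a median of 10 over 21263 promoters of protein-coding genes. Among those promoters, overlap with an interval went with CpG number: 6.86% overlapped among those with 0 to 3 CpG and 79.9% among those with 20 to 56. Of the 1865 promoters with at least as many CpG as Sox1, 81.5% overlapped an interval, and of the 6687 with at least as many as Sox11, 78.5% did. Sox1 and Sox11 were thus among the minority of CpG-rich promoters in the list that had none, and their nearest intervals lay 275712 and 872547 bp from the gene start. Sox4, with the fewest CpG of the 5, lay inside an interval. The sixth promoter, of Sox5, had 3 CpG and 39.6% G and C (55.6% at the median), and its nearest interval was 127416 bp away. It marks a start inside the long Sox5 gene, not its outer end.

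**Figure D2:**
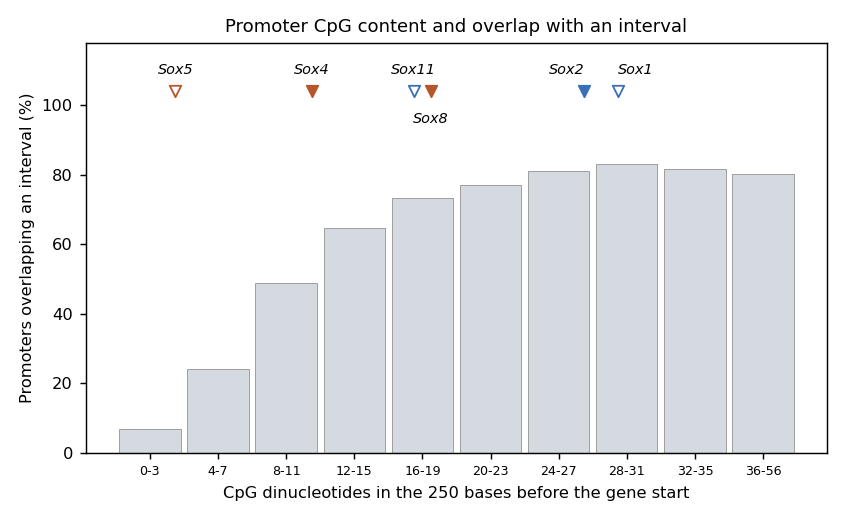
Share of promoters of protein-coding genes that overlapped an interval (bars, percent) by the number of CpG dinucleotides in the 250 bases before the gene start; triangles mark the CpG number of 6 Sox promoters, filled where the promoter overlapped an interval. Sox1 and Sox11 are open triangles above bars of 83% and 73.4%.

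Among the neural members, Sox2 had a single interval, at chr3:34649173-34651944, and no other within 200 kb. It was 2772 bp wide and covered 79% of the gene. Its called region had 41538 in total signal and 27 at its maximum, which put it at percentile 70.6 and percentile 52.4 of all called regions. The maximum stood 66 to 73 bp before the gene start, inside the promoter window printed above. The next intervals were 315359 bp below and 321295 bp above the gene. Exactly 1 interval within 200 kb was found for 7.08% of all genes. Among the 564 genes with no other protein-coding gene within 200 kb, 85 had exactly 1, and for 50 of these it was at a gene end. The gene lies within the non-coding gene Sox2ot, and no other protein-coding gene lay within 200 kb.

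Sox1, also of subgroup B1, differed from Sox2 in having no interval from 321025 bp below to 271676 bp above it, where the next one lay at an end of Tubgcp3, a gene of the microtubule-nucleating complex. Of the 56 other protein-coding genes within 5 Mb of Sox1, 41.1% had a gene-end interval, and of 58 around Sox2, 55.2% did. Sox11, which drives neuronal differentiation, lay farther from its nearest interval than any other of the 10 genes. Its nearest intervals were 864097 bp below, at an end of Cmpk2, and 1245132 bp above, and it was the only member with none within 500 kb. No other protein-coding gene lay within 200 kb of it, and 42.6% of 54 genes within 5 Mb had a gene-end interval.

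Sox10, the regulator of glia and melanocytes, had 3 intervals at the gene. One of 2930 bp covered 30.6% of it at the lower end (chr15:79155333-79158262), one of 2340 bp covered 24.4% near the upper end (chr15:79161563-79163902), and one of 2858 bp began 145 bp above it. The latter pair were pieces of 1 called region, 732 bp apart. The total signals were 36716 for the lower region and 58870 for the upper one, and their maxima were 18 and 19. Taking the highest maximum at each of the 6 genes with a gene-end interval, that of Sox10, 19, was the lowest. The maximum of the lower region lay 8 bp inside the lower end of the gene and outside the deposited interval. The nearest interval below Sox10 was 12722 bp away, at ends of Polr2f and 1700088E04Rik. In all, another 15 intervals lay within 200 kb, 8 of them at ends of other genes such as Polr2f, a subunit shared by the RNA polymerases, Eif3l, a translation initiation factor subunit, and Maff, a small Maf factor. The highest total signal within 200 kb, 62481, was inside Triobp, an actin-bundling protein gene.

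An interval lay over the gene at all 4 mesenchymal members and 2 of 4 neural ones, beside 52.8% of all protein-coding genes. With Sox4 and Sox8 counted as neural, it was 2 of 2 mesenchymal and 4 of 6 neural members. Sox4 carried a called region of total signal 90201 and maximum 44, in 2 pieces. The first, of 4337 bp (chr13:28950084-28954420), covered 75.6% of the gene with the promoter, and the second, of 2816 bp, began 2863 bp above the gene. The maximum was a single base 121 bp before the gene start. Another 2 intervals, 160.9 and 190.0 kb below, with total signals of 19814 and 18659, were the only others within 200 kb, and no other protein-coding gene lay there. In that neighbourhood intervals were sparse, since 19.7% of 71 other genes within 5 Mb had one at an end. Sox4 and Sox11, both of subgroup C, therefore differed in this list as Sox2 and Sox1 did, 1 with a gene-end interval and 1 without any in 200 kb.

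Sox5 had 2 intervals deep inside the gene and none within 1 kb of its ends, a pattern found for 6.29% of genes of all lengths. The gene is 953863 bp long, longer than nearly all others (percentile 99.7). The intervals, of 1659 and 2899 bp, covered 0.478% of it together with total signals of 19831 and 18733 and maxima of 36 and 22. Their maxima were 246.5 and 381.1 kb from the nearest gene end. Another interval, of total signal 15594, was 187.1 kb below the gene, and the nearest above it, at an end of Bcat1, was 291611 bp away. The 3 totals within 200 kb were low, that of 15594 close to the lowest of the list, 15316. Of 227 protein-coding genes of 500 kb or more, 22% had a gene-end interval, and 25.1% had one over the gene and none at an end, as Sox5 did.

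Sox8 and Sox9, both of subgroup E, had broad called regions. At Sox9, the master regulator of cartilage, a region of total signal 111528 and maximum 48 was deposited as 2 pieces. One of 7197 bp (chr11:112778299-112785495) covered 59.2% of the gene from the lower end, and one of 2502 bp lay 5150 bp below. The maximum was 117 bp below the lower end. A separate interval of 1401 bp, with total signal 32111 and maximum 18, lay 598 bp above the upper end. Sox9 thus had the highest maximum of the 10 genes, and intervals near both ends.

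At Sox8, an interval of 6211 bp (chr17:25566869-25573079) covered 79.6% of the gene, its start and the promoter window. It was a piece of a called region of total signal 113412 whose maximum, 31, lay outside it, in a second piece that began 4218 bp above Sox8. That maximum was 8447 bp above Sox8 and 41 bp from an end of Lmf1, a lipase maturation factor gene. The height over Sox8 itself is therefore not given by the list. The interval also reached Cerox1, a non-coding gene 125 bp above Sox8. The nearest interval below Sox8 was 3742 bp away and between coding genes. Of the 14 intervals within 200 kb but not at Sox8, 5 lay at ends of other coding genes and 4 inside them. The highest total signal among them, 181932, belonged to a region at the ends of Chtf18, Gng13 and Rpusd1.

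The surroundings of Sox9 differed from those of the other members with many intervals. Around Sox8, Sox10 and Sox18 there were 11, 15 and 16 other protein-coding genes within 200 kb, and around Sox9 none. All 16 intervals within 200 kb but over 1 kb from Sox9, among them the lower piece of its own region, lay between protein-coding genes, against 5 of 14 around Sox8, 2 of 15 around Sox10 and 1 of 23 around Sox18. They included 5 between 29.9 and 77.2 kb above the gene, of total signal 16450 to 58670. A second group of 6 began 163.5 to 197.7 kb above it, and the widest of all 16, 3995 bp, lay 47.9 kb below. The 12 other called regions had maxima of 11 to 29 with a median of 18, beside a median of 20 over all 9962 called regions away from gene ends.

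Among the 564 protein-coding genes with no other within 200 kb, Sox9 had the most intervals, 18, in 14 called regions. The median of these genes was 0 and their 95th percentile 4, and the next highest was Med13l with 16. Sox9 lies on chromosome 11 beyond 90 Mb, a stretch with 53.9 intervals per Mb against 8 over all chromosomes. Among the 626 protein-coding genes of that stretch the median was 31 intervals within 200 kb, with a median of 14 other coding genes there, and Sox9 stood at percentile 14.5. The other 3 genes of the stretch without a coding neighbour, Car10, Gm11677 and Kif2b, had 4, 4 and 0. The part of the dense stretch in the count at Sox9 was not tested.

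**Figure D3:**
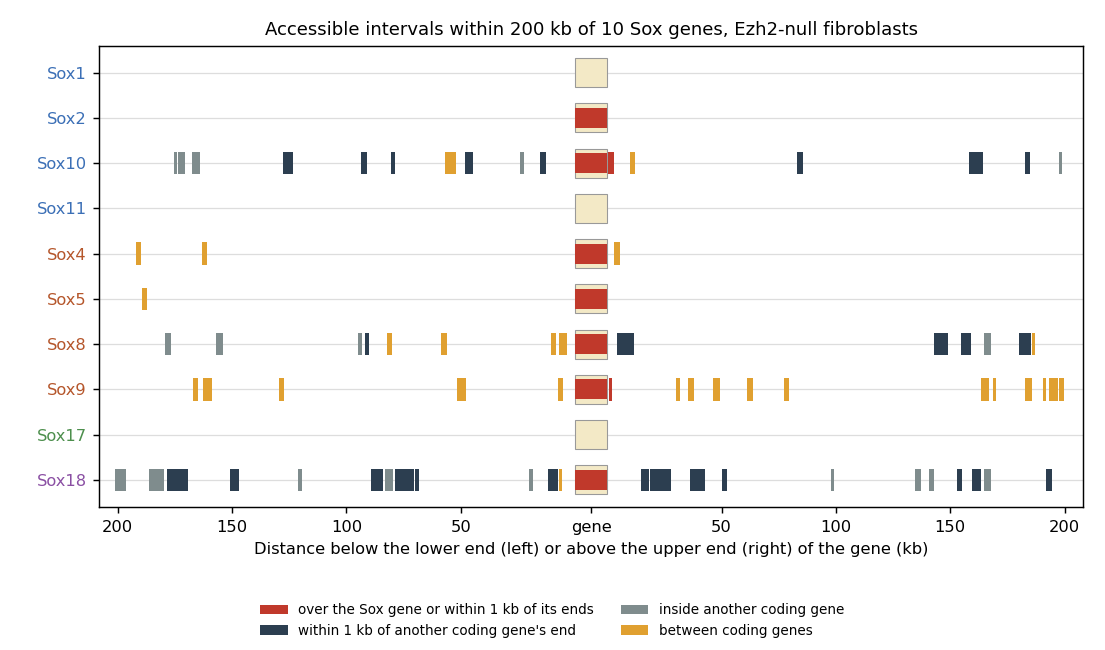
Position of the intervals within 200 kb of each Sox gene, as distance in kb below the lower or above the upper end; the gene is drawn as a block of fixed width whatever its length, the block is filled red where an interval overlaps the gene, and very short intervals are widened to 1.2 kb to be visible. Intervals between genes (yellow) line both sides of Sox9, whereas Sox18 and Sox10 are flanked mainly by intervals at or inside other genes.

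Sox17, which specifies definitive endoderm and acts in arterial endothelium, had no interval within 200 kb. Its nearest, 287278 bp above, was at an end of Mrpl15, a mitochondrial ribosomal protein gene, with a total signal of 19468, and no interval lay below it on chromosome 1. Of 35 other protein-coding genes within 5 Mb, 17.1% had a gene-end interval, and of 7 within 1 Mb, 57.1%. Sox18, its F relative in endothelium, had the opposite pattern, an interval of 12014 bp (chr2:181669979-181681992) over 92.1% of the gene. That width was exceeded by few intervals (percentile 99.4), and the total signal, 124141, was the highest at any of the 10 genes.

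The Sox18 interval stretched far above the gene, and its maximum, 37, lay 7322 bp above Sox18 and 1335 bp from an end of Tcea2, a transcription elongation factor gene. The nearest other intervals were 6274 bp below and 14622 bp above Sox18. Of the 23 other intervals within 200 kb, 13 lay at ends of other coding genes and 9 inside them, led by a region of total signal 202490 at Uckl1, Zfp512b, Samd10 and Prpf6. Intervals covered 25% of the sequence within 200 kb of Sox18, compared with 13.2% at Sox8, 12.3% at Sox10, 11.8% at Sox9, 2.83% at Sox4 and 0.689% at Sox2. Among the 80 other genes within 5 Mb of Sox18, 71.2% had a gene-end interval.

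**Figure D4:**
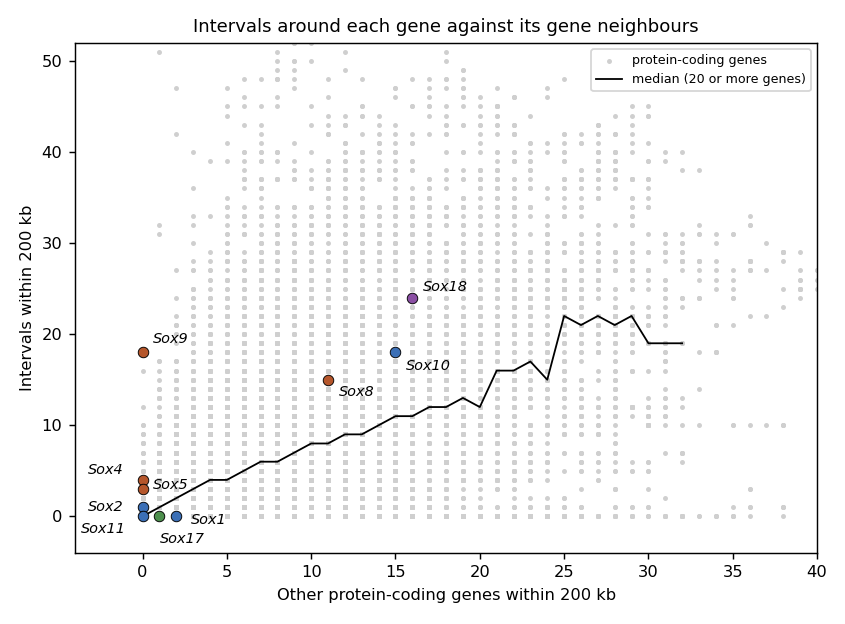
Intervals within 200 kb (y axis) against other protein-coding genes within 200 kb (x axis) for each protein-coding gene (grey), with the median for each number of neighbours that at least 20 genes share (line) and the 10 Sox genes coloured by lineage; 15 genes fall outside the axes. Sox9 stands at 18 intervals with no coding neighbour, while Sox1, Sox11 and Sox17 lie at 0.

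Over all genes the median number of intervals within 200 kb was 0 for genes with no coding neighbour, 1 for those with 1 or 2, and 10 for those with 11 to 20. Sox2, Sox4, Sox5, Sox9 and Sox11 had no coding neighbour, Sox1 and Sox17 had 1 or 2, and Sox8, Sox10 and Sox18 had 11 to 20. In the class without neighbours 23.6% of genes had a gene-end interval and 64.9% had none within 200 kb, while 3 of the 5 members had the former and 1 the latter. In the class of Sox1 and Sox17, both without an interval, 36.7% of genes had a gene-end interval and 32.9% had none within 200 kb. Sox8, Sox10 and Sox18, with 15, 18 and 24 intervals, all lay above the median of their class. These intervals came from 9, 17 and 17 called regions, and the class median was not computed per called region.

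At each of the 6 Sox genes with a gene-end interval, the called region ranked higher by total signal than by maximum signal. The ranks are percentiles among all genes with a gene-end interval, 53.5 and 22.3 for Sox2 and 85.8 and 64.3 for Sox4, with the others below. Over the 6 genes with a gene-end interval, the highest total signal per gene had a median of 100864.5, against 39334.5 over all genes with one, whereas the maximum had a median of 34 against 39. The maxima of the Sox8 and Sox18 regions lay outside these genes, nearest to ends of Lmf1 and Tcea2, so they are not heights over the Sox genes. Without Sox8 and Sox18, which were left out after seeing the data, the medians over the other 4 genes were 74535.5 in total and 35.5 at the maximum. Of the 10 Sox genes, 6 had a gene-end region above the median total signal of the list, against 32.7% of all genes. Above the upper quartile stood 5 of the 10, without Sox2, against 19.6% of all genes. Above the upper quartile of maximum signal stood 2 of the 10, Sox4 and Sox9, against 22.7% of all genes. Among the 10378 protein-coding genes with a gene-end interval, 7159, 4297 and 4973 passed these thresholds in turn. Among genes with a gene-end interval, Sox9 was at percentile 90.5 by total signal and 72.3 by maximum. The regions that Sox18 and Sox8 share with Tcea2 and Lmf1 were at percentiles 92.2 and 90.9 by total signal and at 47.1 and 31.5 by maximum. Sox10 showed the widest gap, percentile 70.9 by total and 7.82 by maximum.

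The called regions with a high total were broad. They spanned 15414 bp at Sox8, 12014 bp at Sox18, 10937 bp at Sox9, 9294 bp at Sox4, 5930 bp at the upper end of Sox10 and 2772 bp at Sox2, and the median over called regions at gene ends was 2795 bp. At Sox8, Sox9, Sox4 and the upper end of Sox10 the region was in 2 pieces, as for 13.4% of regions at gene ends in 2 or more. At Sox8 and Sox18 the region reached an end of another protein-coding gene, and its total is shared with that gene. The regions at Sox4 and the upper end of Sox10 reached an end of a non-coding gene, Gm52067 and Gm10863. Apart from Sox8 and Sox18, total signals of 41538, 58870, 90201 and 111528 stood at Sox2, Sox10, Sox4 and Sox9.

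**Figure D5:**
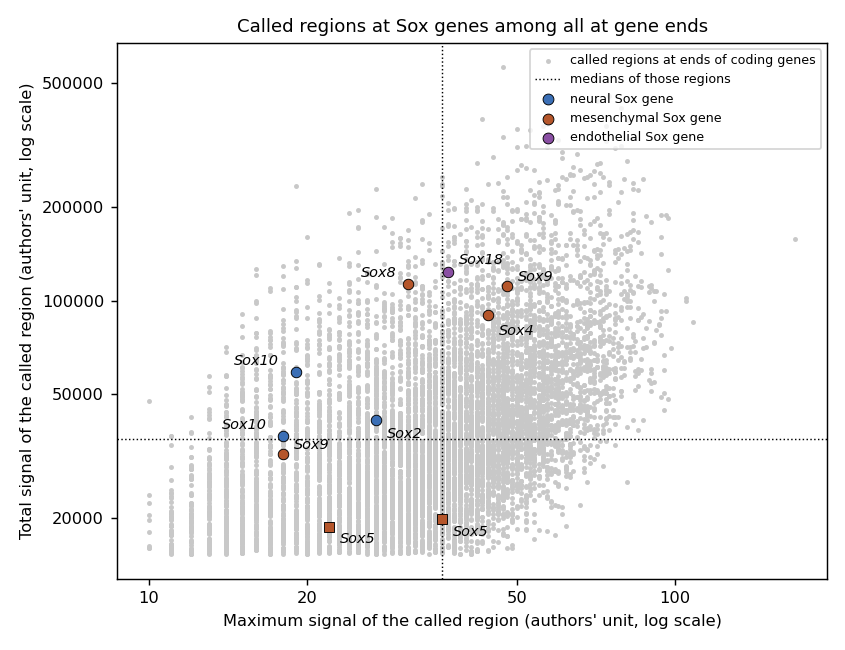
Total signal against maximum signal of called regions at ends of protein-coding genes (grey, both axes logarithmic, authors' unit) with the regions at Sox genes coloured by lineage; dotted lines are the medians of the grey regions, 36 for the maximum and 36084 for the total, and squares are the 2 regions inside Sox5, away from its ends. Sox8, Sox9, Sox18 and Sox4 lie high on the vertical axis. On the horizontal one they are at percentiles 38.8, 77.2, 54 and 70.1 of the grey regions.

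Read by subgroup, and beside 47.4% of all genes with a gene-end interval, the 3 E members had one at 3 of 3, with 15 to 18 intervals within 200 kb. Of the other protein-coding genes within 5 Mb, 72.8% had one around Sox8, 82.5% around Sox9 and 56% around Sox10. The call at Sox8 was lost among intervals that hold their own maximum, and the subgroups are too small to compare. B1, C and F each had 1 of the 2 members examined with one (Sox2, Sox4 and Sox18) and 1 with none in 200 kb (Sox1, Sox11 and Sox17), and D, represented by Sox5, had 0 of 1. The other 10 genes of the family gave 3 with a gene-end interval (30%, against the same 47.4%). Sox12, the remaining C gene, had 157430 in total signal and 63 at its maximum, Sox13 of subgroup D had 90791 and 26, and Sox15 had 108340 and 50. Sox3, Sox14 and Sry had no interval within 200 kb, and Sox6, the partner of Sox5 in cartilage, had 1 interval over the gene and none at its ends, like Sox5. Sox7, Sox21 and Sox30 had 1, 3 and 4 within 200 kb and none over the gene.

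Genes linked to Sox factors in other tissues were counted the same way, beside 47.4% of all genes with a gene-end interval. Of 13 cartilage genes that Sox9, Sox5 and Sox6 regulate, 6 had one, led by the collagen genes Col9a3 (total signal 228557, maximum 60), Col27a1 (73210, 26) and Col9a2 (33154, 33) and the matrilin gene Matn1 (34380, 17), while Acan, Cnmd and Col11a1 had none. Col2a1, the classical Sox9 target, had one of total signal 17688 and maximum 17. Over the gene it had 5 intervals, with a highest total signal of 100859. Of 12 glial and pigment genes of Sox10, 4 had one, among them Erbb3, Mitf and S100b with total signals of 83166, 21685 and 15703, and Dct, Ednrb and Gjb1 were the first in alphabetical order without. Genes linked to Sox4 and Sox11 had one at 2 of 6, the TEAD factor gene Tead2 (32420) and the neuronal gene Map2 (21141). The neuronal genes Dcx, Gap43 and Stmn2 had none.

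Of 10 endothelial genes of Sox17 and Sox18, 2 had a gene-end interval, Notch1 (total signal 93089, maximum 52) and the receptor gene Flt1 (71520, 33), and Cdh5, Cldn5 and Dll4 were among the 8 without. Of 7 endoderm genes 1 did, the pioneer factor gene Foxa1 (25626, 20), while Afp, Cer1 and Cxcr4 had none. POU and Pax factors, which pair with Sox proteins on DNA, had one at 3 of 7, Pou3f1 (84780, 27), Pou2f1 (74608, 72) and Pou3f2 (15805, 15), and Pax6, Pou3f3 and Pou3f4 had none. All 5 genes of beta-catenin and its Tcf and Lef partners, with which SoxE and SoxF proteins interact, had one, with total signals of 45930 at Tcf7l1, 30379 at Lef1, 27981 at Tcf7l2, 27562 at Ctnnb1 and 16548 at Tcf7. With 5 to 13 genes per list these shares are counts, and no list was tested against other genes.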

How the data were processed

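Chromatin accessibility was measured by ATAC-seq in 6 samples, 2 per group, of 1 mouse fibroblast line carrying c-myc, grouped by the genotype and treatment labels. Only the interval list of the Ezh2 -/- cells was used. The submitters' processing notes name Bowtie2 2.2.9, deepTools, the peak caller SEACR and mm10. The sources used here do not say how reads were filtered or shifted, which threshold or control was applied, or how the 2 replicates were pooled. The list was deposited without a header and was read in SEACR's column order. Its total signal is a score per called region in the authors' unit, and its maximum signal is the authors' coverage height, deposited with no stated scaling. Since 20.5% of intervals lie apart from the maximum listed with them, signals were summarised per called region and widths per interval.

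Genes and promoters came from RefSeq tables on GRCm38.p6. The gene table gives no strand, so both ends of a gene were treated alike. An interval counted where at least 1 bp fell within 1000 bp of a gene end, over the gene, or within 200 kb. Percentiles are the share of called regions, intervals or genes at or below a value. Every member was named, with its intervals, the nearest interval on each side and the highest one within 200 kb, and linked lists by up to 4 genes of highest total signal at a gene end and the alphabetically first 3 lacking a gene-end interval. The value of 1 listed gene is not reported here. The members and lists were chosen with earlier results of these data known. No test was run, since 1 list without replicates allows none. Alternatives covered windows, signal thresholds, overlaps, distances and the lineage assignment. The work was done in Python 3.11.15 (numpy 2.4.6, pandas 2.3.3, scipy 1.17.1, matplotlib 3.10.9), and the interval lookup was tested on simulated data.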

Additional observations from a re-analysis of the deposited data

How the results depend on the processing

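The count of Sox genes with a gene-end interval stayed between 5 and 6 of 10 under windows of 500 and 2500 bp, an overlap of at least 200 bp and the 3 stricter sets of intervals. Sox2 was lost above the upper quartile of total signal and Sox8 among intervals holding their own maximum. Above that quartile, the number of all protein-coding genes with a gene-end interval was 4297 in place of 10378. The median number of intervals around the members, 3.5 within 200 kb, was 1.5 above the median total signal, 1 above the upper quartile, 2 within 50 kb, 2 within 100 kb and 6.5 within 500 kb. The number of members with none nearby, 3, was 5 above the upper quartile (Sox2 and Sox5 joined Sox1, Sox11 and Sox17) and 1 within 500 kb (Sox11). The 17.2% of all genes with none holds for all intervals within 200 kb. That share was not computed under the other settings, so the changed counts have no background beside them. With Sox4 and Sox8 counted as neural, 4 neural and 1 mesenchymal members had a gene-end interval. Counted once per called region, Sox8 had 9 in place of 15 within 200 kb. Leaving out Sox9 and its stretch of chromosome 11, which was added after seeing the data, gave 5 members of the other 9 and 46.5% of genes. Of the 46 alternative values of these counts, 36 stayed within 1.5 times the value reported. Counting Sox17 as endothelial left no endodermal member, so that count has no value there. No paired analysis was possible because the list carries no value per replicate, and no replicate could be left out. The depth is unknown, so an empty stretch means only that no interval passed the authors' threshold there.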

Other observations

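Non-coding genes lie over or beside several of the Sox genes, and the intervals did not follow them in one way. Sox1 lies within Sox1ot as Sox2 lies within Sox2ot, and Sox1ot had no interval while the only one near Sox2ot was that over Sox2. At Sox4 the gene sits inside the non-coding gene Gm46405, and the second piece of its called region lay within 1 kb of an end of Gm52067. The piece above Sox10 was within 1 kb of an end of Gm10863, and of the 2 intervals inside Sox5, the one of 2899 bp was within 1 kb of an end of Gm38531.

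The 6 promoters were searched on both strands for 3 short motifs in the same 250 bases. For the Sox core only the exact letters ACAAT were searched, and variants of that site were not counted. ACAAT was found in 1, that of Sox5, and 25.1% of all promoters hold it. The CCAAT box, CCAAT, was found 4 times in the Sox4 promoter and once each in those of Sox1, Sox2 and Sox11, with none in Sox8 or Sox5, and 35.4% of promoters hold it. The octamer of POU factors, ATGCAAAT, was in none of the 6 and in 1.58% of all promoters. These are matches of letters in a window and say nothing of binding.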
